A study of Homo sapiens with 6 samples.

Results

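Homeobox genes outside the HOX clusters were followed through 4 lists of histone mark peaks from HL-60 cells, an established line grown from a human promyelocytic leukaemia and labelled as myeloblasts. Members were the gene symbols of 21 homeobox families named by a letter stem and a number (PAX, LHX, DLX, IRX, EMX, OTX, MSX, TLX, MEIS, PBX, BARX, GBX, EN, CUX, ZFHX, PITX, PRRX, ALX, ISL, LMX and the sine oculis genes SIX4 and SIX5), together with the NKX and POU genes. Of 18086 symbols with a line in any list, 71 fitted this rule. RefSeq names 103 protein-coding genes of this kind, and the other 32 were not analysed here. The rule reads the symbol alone, and whether each gene encodes a full homeodomain was not checked. The JMJD3 knockout (KO) cells and the parental cells gave 1 H3K4me3 library and 1 H3K27me3 library each, and the input libraries, 2 in all, were not analysed here. Both kinds of cell were the same line in the same medium. The sources used here do not say how the knockout was made or whether it is 1 clone. With 1 library per genotype and mark, the differences below have no replicate check, and none has a p-value.

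Homeobox genes encode transcription factors that bind DNA through a homeodomain of helices, and most are switched on in particular regions of the embryo. In tissues where they are silent, many lie under H3K27me3, the methylation placed on histone H3 by Polycomb repressive complex 2. H3K4me3 marks active or poised promoters, and a promoter that carries both marks is often called bivalent. The enzyme JMJD3, product of the KDM6B gene, takes methyl groups off lysine 27 again. A few of these families act in blood cells: MEIS and PBX proteins bind DNA together with HOX proteins, POU2F1 and POU2F2 are the octamer-binding factors OCT1 and OCT2, and PAX5 sets B cell identity.

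The lists name peaks within 20 kb of a transcription start site (TSS) and hold no read counts, so sequencing depth is unknown. A promoter was counted as marked when the centre of a peak lay at most 5 kb from a listed TSS of the gene, or when a peak spanned it. The width of a gene's promoter peaks was summed in base pairs (bp) and measures the extent of the called region, not the amount of the mark. The H3K4me3 lists held 24943 KO and 33470 parental peaks, with median widths of 260 and 359 bp, and the H3K27me3 lists held 3234 KO and 3578 parental peaks. The titles of the H3K27me3 libraries name that mark, whereas their antibody label names H3K4me3, and the mark was taken from the title. KDM6B itself had promoter H3K4me3 over 710 bp in KO cells and 3041 bp in parental cells, which does not check the knockout. Of 11 granulocyte precursor markers 8 had promoter H3K4me3 in KO cells and 9 in parental cells, led by MPO (myeloperoxidase) with 2550 bp in KO cells and 5524 bp in parental cells. None of the 11 had promoter H3K27me3, and ELANE and AZU1 had no promoter peak of either mark in either genotype. Of 4 B cell markers 2 had promoter H3K4me3 in both genotypes, as did 1 of 4 T cell markers and 1 of 4 erythroid markers. Of 3 neuronal markers 1 had it in parental cells only, and of 3 epithelial markers none did. The granulocyte precursor shares were 72.7% in KO cells and 81.8% in parental cells, against 62.9% and 71.3% of all symbols. These small sets do not check the identity of the cells.

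The promoters of LHX4, POU2F2 and ZFHX2 are shown as 3 degrees of cover by H3K4me3 in KO cells: on the stretch shown LHX4 kept nearly all of its H3K4me3 cover, POU2F2 had its H3K4me3 peak in parental cells only, and ZFHX2 kept a single peak of 146 bp there in KO cells. Each line gives the 250 bases before the gene's start from RefSeq, read 5′ to 3′ on the gene's strand of GRCh38.p14, with each CpG in capitals.
LHX4: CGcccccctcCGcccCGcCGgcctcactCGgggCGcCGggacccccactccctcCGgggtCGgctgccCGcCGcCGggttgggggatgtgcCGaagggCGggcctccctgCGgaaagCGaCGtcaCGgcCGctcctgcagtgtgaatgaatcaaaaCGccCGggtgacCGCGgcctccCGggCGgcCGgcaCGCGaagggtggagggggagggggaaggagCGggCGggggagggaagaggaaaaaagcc
POU2F2: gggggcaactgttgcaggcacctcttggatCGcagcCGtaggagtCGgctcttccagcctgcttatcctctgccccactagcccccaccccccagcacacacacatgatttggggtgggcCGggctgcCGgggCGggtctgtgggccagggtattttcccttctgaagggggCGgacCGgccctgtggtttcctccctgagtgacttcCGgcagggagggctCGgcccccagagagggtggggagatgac
ZFHX2: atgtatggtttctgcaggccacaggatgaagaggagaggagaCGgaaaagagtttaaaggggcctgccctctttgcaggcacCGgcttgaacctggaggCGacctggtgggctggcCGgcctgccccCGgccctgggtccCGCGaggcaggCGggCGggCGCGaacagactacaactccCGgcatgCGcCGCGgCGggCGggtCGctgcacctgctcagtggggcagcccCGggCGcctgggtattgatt
The stretches are chr1:180230014-180230263 on the plus strand for LHX4, chr19:42132447-42132696 on the minus strand for POU2F2 and chr14:23551766-23552015 on the minus strand for ZFHX2. They hold 30, 10 and 20 CpGs, where the 11864 symbols of the lists with a RefSeq promoter had a median of 19 and quartiles of 9 and 27. Measured from the listed start, H3K4me3 peaks covered 233 of these 250 bases in KO cells and 250 in parental cells at LHX4, 0 and 190 at POU2F2, and 146 and 250 at ZFHX2. The listed starts and the RefSeq starts were matched to within 100 bp, so these covered lengths are approximate.

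H3K4me3 was listed at fewer of these promoters, and over shorter stretches, in KO cells than in parental cells. Promoter H3K4me3 was listed for 20 of the 71 genes (28.2%) in KO cells and for 30 (42.3%) in parental cells. Over all symbols the shares were 62.9% in KO cells and 71.3% in parental cells. No member was marked in KO cells only, where 0.984% of all symbols and 1.57% of those marked in KO cells were, and 10 members (14.1%) were marked in parental cells only, where 9.45% of all symbols were. As a share of the promoters marked in parental cells, those 10 make 33.3%, against 13.2% over all symbols. The other 41 members had no H3K4me3 peak at the promoter in either genotype. HOX cluster genes were marked at 6 of 33 members in KO cells and 13 in parental cells.

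**Figure D1:**
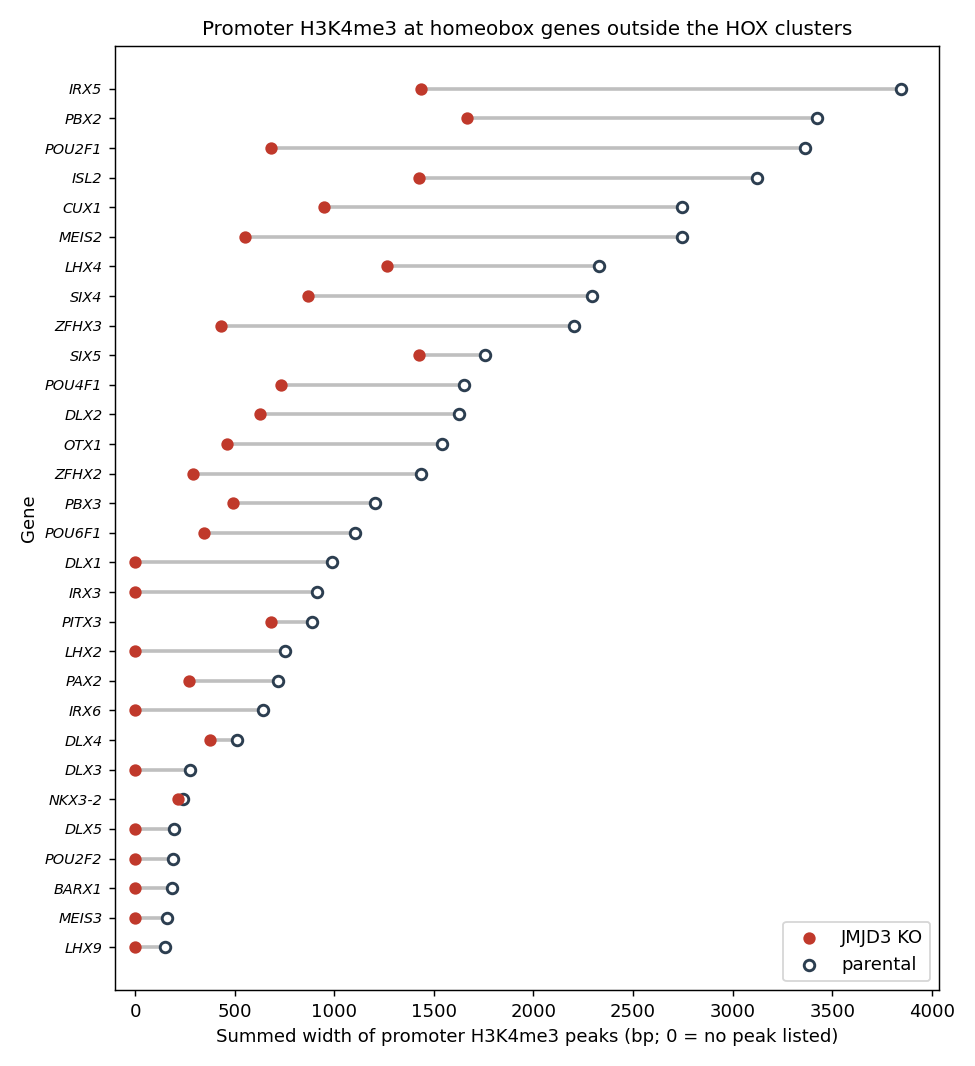
Summed width of promoter H3K4me3 peaks in bp at the 30 homeobox genes outside the HOX clusters with such a peak in either genotype. Filled red points are JMJD3 KO cells and open points are parental cells, with 1 library each. All 30 red points lie left of the open points, and 10 of them stand at 0.

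The 10 genes marked in parental cells only came mostly from the DLX, IRX and LHX families. DLX1, a factor of forebrain interneurons, had 0 bp in KO cells and 987 bp in parental cells, in 3 peaks on both sides of its start. The nearest KO peak lay at -5282 bp, upstream of the DLX1 start and just outside the window, with a width of 172 bp. The Iroquois genes IRX3 and IRX6 pattern the neural tube and the heart. IRX3 had 0 bp in KO cells and 914 bp in parental cells, in 3 peaks. IRX6 had 0 bp in KO cells and 642 bp in parental cells, and was the only gene of the 10 with a peak that spanned the TSS, from 55358405 to 55358900 on chromosome 16 (hg19). LHX2, a LIM homeobox gene of forebrain and hair follicle, had 0 bp in KO cells and 752 bp in parental cells, in 2 peaks upstream of its start, at -2678 and -3180 bp.

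The remaining 6 of these genes had a single narrow parental peak each and 0 bp in KO cells. DLX3, a gene of skin, hair and tooth, had 278 bp, DLX5, a bone and limb gene, had 198 bp, and BARX1, a gene of stomach and tooth mesenchyme, had 187 bp. POU2F2 had 190 bp, MEIS3 had 160 bp and LHX9, which is needed to form the gonad, had 149 bp. Of these, the peaks of MEIS3 and POU2F2 lay 110 and 151 bp from the TSS, while that of BARX1 lay 3759 bp away. The POU2F2 peak was 4 bp from the start of the non-coding gene LOC100505622, and it is listed for MIR4323 as well.

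Whether a promoter was listed in parental cells only went with its parental width, in this family and over all symbols. Of members with under 500 bp in parental cells, 6 of 7 had no KO peak (85.7%), against 63% of all symbols in that range. From 500 bp to under 1000 bp the counts were 4 of 7 (57.1%), against 26.9%. Of the 16 members with wider promoters, 0 of 7 with under 2000 bp and 0 of 9 with 2000 bp or more lacked a KO peak, where all symbols gave 5.26% and 0.306%. With 7 genes in a range, 1 gene moves a share by over 10 percentage points.

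**Figure D2:**
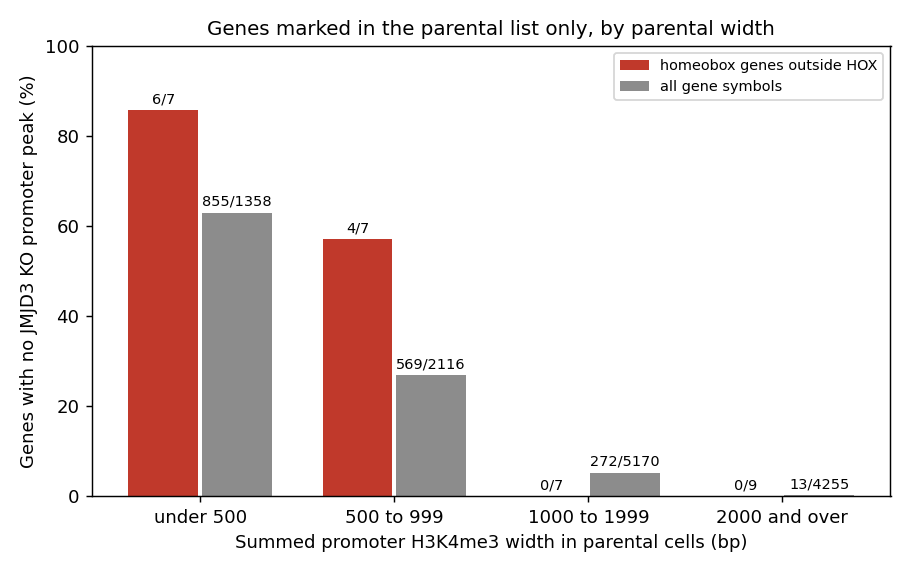
Percent of genes marked in parental cells that had no promoter H3K4me3 peak in JMJD3 KO cells, by summed parental width in bp, for homeobox genes outside HOX (red) and all gene symbols (grey). The numbers above the bars are genes without a KO peak out of genes marked in parental cells, with 6 of 7 in the narrowest range and 0 of 9 in the widest.

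Genes near these promoters varied in how many were marked in both genotypes, as 11190 of all 18086 symbols were. Around DLX1, 12 of 12 other genes within 1 Mb had promoter H3K4me3 in both genotypes, and the median of their log2 width ratios (KO over parental) was -0.99. Around MEIS3, 33 of 47 were marked in both and 5 in parental cells only, with a median of -1.07, and around POU2F2 26 of 44 were marked in both, 7 in parental cells only and 1 in KO cells only. The counts marked in both were 9 of 11 around LHX2, 6 of 7 around LHX9, 8 of 18 around BARX1, 5 of 11 around DLX5 and 3 of 6 around IRX3. Around IRX6, 3 of 9 neighbours were marked in both, with a median of 0.02. The neighbourhood medians of the 10 genes ran from -1.38 at IRX3 to that value at IRX6. Of 44 neighbours of DLX3, 9 had the mark in parental cells only and 23 had it in both.

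All 20 promoters marked in both genotypes were narrower in KO cells, where 95.9% of all symbols marked in both were narrower and 4.05% wider. Their median log2 width ratio, KO over parental, was -1.39 (quartiles -1.68 and -1.0), against -1.01 (quartiles -1.49 and -0.61) over the 11190 symbols marked in both. A ratio of -1 or less was found at 15 of the 20, and at 50.6% of all symbols, and a ratio of 1 or more at 0 of the 20 and at 0.384% of all symbols. Summed over all members, promoter H3K4me3 covered 15200 bp in KO cells and 43210 bp in parental cells, or 35.2% of the parental width, where all symbols kept 47.9%. The widest peak of these 20 genes had a median of 330 bp in KO cells and 814 bp in parental cells. Fewer peaks were listed in KO cells at 10 of the 20, as many at 8, and more at IRX5 and LHX4, where narrow KO peaks lay within or beside wide parental ones.

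**Figure D3:**
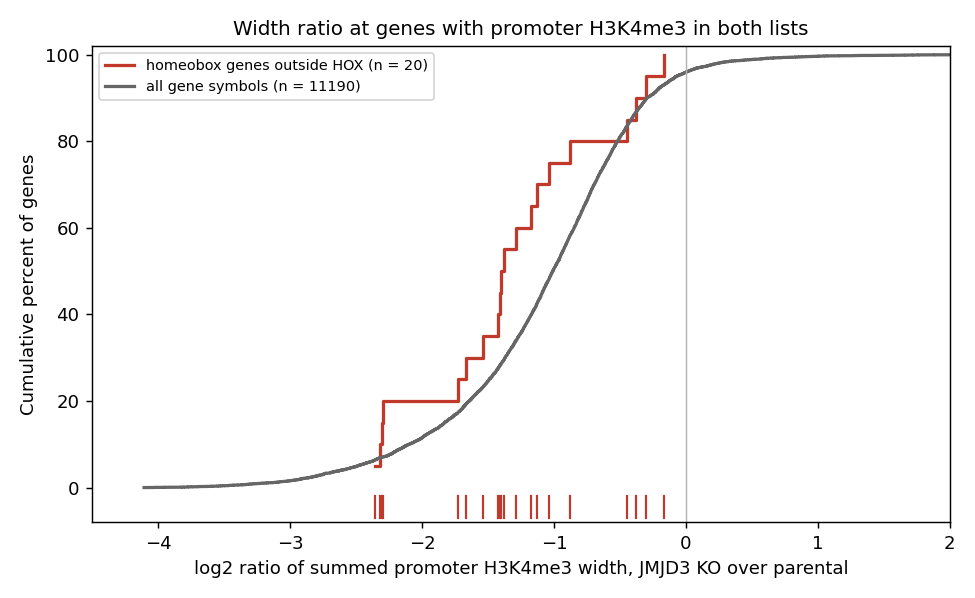
Cumulative percent of genes against the log2 ratio of summed promoter H3K4me3 width, JMJD3 KO over parental, for the 20 homeobox genes outside HOX (red, each also drawn as a tick) and all 11190 gene symbols marked in both lists (grey). The red line lies left of the grey one over most of its length, with medians of -1.39 and -1.01, and every red tick is below 0.

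The widest parental promoter was that of IRX5, an Iroquois gene, with 1437 bp in 6 KO peaks and 3846 bp in 4 parental peaks. Its start was spanned by a parental peak of 1274 bp that had no KO counterpart, and 5 of the 6 KO peaks and 3 of the 4 parental peaks lay nearer to the non-coding gene CRNDE beside it. Counting only peaks nearest to IRX5, 309 bp remained in KO cells and 1274 bp in parental cells, so its first place rests on peaks nearer to CRNDE. Among the other TALE genes, whose homeodomain carries a loop of extra residues, PBX2 had 1665 bp in KO cells and 3423 bp in parental cells (log2 ratio -1.04). PBX3 had 493 bp in KO cells and 1203 bp in parental cells (-1.29). MEIS2 had 550 bp in KO cells and 2745 bp in parental cells, and its ratio of -2.32 was among the 3 lowest. The PBX2 promoter runs into that of GPSM3, whose start is nearer to 2 of the 4 KO peaks and 2 of the 7 parental peaks.

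The octamer factor gene POU2F1 had 681 bp in KO cells and 3361 bp in parental cells, a log2 ratio of -2.30. Its starts lie in 2 regions of chromosome 1. Around the upstream starts, between 167188753 and 167192056, 3 KO peaks of 681 bp stood against 5 parental peaks of 2222 bp. Around the start near 167298281, 0 KO peaks stood against 4 parental peaks of 1139 bp, so the inner start region was marked in parental cells only. The other POU genes marked in both were POU6F1, with 348 bp in KO cells and 1105 bp in parental cells, and POU4F1, a sensory neuron factor, with 735 bp in KO cells and 1654 bp in parental cells. POU4F1 was the only member whose start was spanned by a KO peak and by no parental peak: the parental list had a peak on each side of it.

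ZFHX3, a large protein with zinc fingers and homeodomains, had the lowest ratio of all, -2.35, with 431 bp in KO cells and 2203 bp in parental cells. Unlike POU2F1, both of its start regions kept a KO peak, of 267 and 164 bp, against 901 and 1302 bp in parental cells. Its relative ZFHX2 had 292 bp in KO cells and 1436 bp in parental cells (-2.30). At the ZFHX2 start a parental peak of 1232 bp stood against a KO peak of 146 bp, and the second peak of each list lay nearer to the start of THTPA. CUX1, a gene of the CUT class that is lost in some myeloid leukaemias, had 947 bp in KO cells and 2746 bp in parental cells (-1.54).

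The LIM gene ISL2, a factor of motor neurons, had 1426 bp in KO cells and 3125 bp in parental cells (-1.13). LHX4, which acts in the pituitary and in motor neurons, had 1266 bp in KO cells and 2330 bp in parental cells (-0.88), one of 5 ratios above -1. SIX4, of the sine oculis class that acts in muscle, had 868 bp in KO cells and 2293 bp in parental cells (-1.40), and SIX5 had 1424 bp in KO cells and 1755 bp in parental cells (-0.30). Both starts were spanned by a peak in both genotypes, which held for no other member. In all, 3 of 20 marked members had a spanned start in KO cells and 13 of 30 in parental cells, against 9.86% and 24% of all marked symbols.

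Besides SIX5, the ratios nearest to 0 were those of NKX3-2 (-0.16), PITX3 (-0.38) and DLX4 (-0.45). NKX3-2, a cartilage gene, had 216 bp in KO cells and 242 bp in parental cells, in 1 peak each that did not overlap. PITX3, a gene of lens and dopamine neurons, had 685 bp in KO cells and 891 bp in parental cells, but all of its peaks lay 3518 bp or more from its start and nearer to GBF1. DLX4, a placental DLX gene, had 375 bp in KO cells and 511 bp in parental cells. DLX2, the neighbour of DLX1, had 627 bp in KO cells and 1628 bp in parental cells (-1.38), so it kept promoter H3K4me3 where DLX1 had none. OTX1, a forebrain gene, had 464 bp in KO cells and 1539 bp in parental cells, and PAX2, a kidney gene, had 270 bp in KO cells and 717 bp in parental cells.

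Nearly all KO peaks at these promoters lay over parental peaks, and fewer than 50% of the parental peaks lay over KO peaks. Of 53 KO promoter peaks, 49 (92.5%) overlapped a parental peak by at least 1 bp, and of 88 parental promoter peaks, 40 (45.5%) overlapped a KO peak. Over all promoter peaks these shares were 91.2% and 55.8%.

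H3K27me3 was listed in the promoter windows of 8 members (11.3%) in KO cells and of 12 (16.9%) in parental cells, against 4.97% and 5.11% of all symbols. Most of these peaks lay away from the start itself. Their median distance was 3660 bp in KO cells and 3118 bp in parental cells, and 2 of 10 KO and 1 of 13 parental peaks lay within 1 kb. Of the marked members, 4 (5.63% of all members) were marked in KO cells only, against 2.6% of all symbols, 8 (11.3%) in parental cells only, against 2.74%, and 4 in both. As a share of the marked promoters, 4 of 8 KO promoters had no parental peak (50%), against 52.3% over all symbols, and 8 of 12 parental promoters had no KO peak (66.7%), against 53.6%. These shares rest on 8 and 12 genes and lay within 2 genes of those over all symbols. Genes without a line in any list are in none of the shares, and a gene without H3K4me3 was counted only through H3K27me3. A start was spanned at 2 of 8 marked members in KO cells and 0 of 12 in parental cells, against 12.7% and 13.5% of all marked symbols. HOX cluster genes had promoter H3K27me3 at 1 of 33 members in KO cells and 0 in parental cells.

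**Figure D4:**
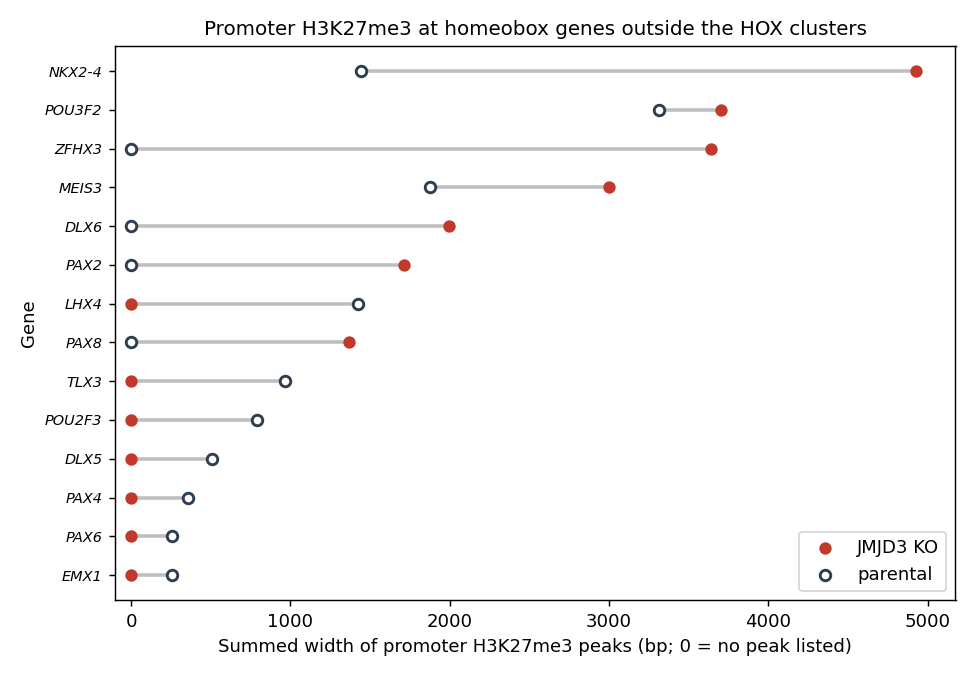
Summed width of promoter H3K27me3 peaks in bp at 14 of the 16 homeobox genes outside the HOX clusters with such a peak in either genotype. Filled red points are JMJD3 KO cells and open points are parental cells, with 1 library each. The 4 genes marked in KO cells only reach 1371 to 3642 bp, the 7 shown that are marked in parental cells only reach 258 to 1424 bp, and the 3 shown that are marked in both lie further right in KO cells.

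The 4 promoters marked in KO cells only had a median H3K27me3 width of 1856.5 bp, against 1080.5 bp over all symbols marked in KO cells only. ZFHX3 had 3642 bp in KO cells and 0 bp in parental cells, in 1 peak centred 2840 bp upstream of its outer start, from 73093554 to 73097195 on chromosome 16. DLX6, the partner of DLX5 in limb and jaw, had 1997 bp in KO cells and 0 bp in parental cells. The DLX6 peak lay 4914 bp from its start, nearer to DLX6-AS1, and overlapped a parental peak of 1089 bp by 343 bp, which lay 6114 bp from the start and so outside the window. PAX2 had 1716 bp in KO cells and 0 bp in parental cells, in a peak that spanned the start, from 102505421 to 102507136 on chromosome 10. PAX8, a gene of thyroid and kidney, had 1371 bp in KO cells and 0 bp in parental cells, centred 4918 bp from its start, just inside the window.

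The 8 promoters marked in parental cells only had 0 bp in KO cells and narrower regions, with a median of 590.5 bp. Over all symbols too, regions marked in parental cells only were narrower (median 828 bp) than those marked in KO cells only (1080.5 bp). LHX4 had 1424 bp in parental cells, TLX3, a gene of sensory neurons that is activated in some T cell leukaemias, had 966 bp, and POU2F3, which sets the identity of tuft cells, had 790 bp. DLX5 had 509 bp, but KO peaks of 510 bp at -5198 bp and 676 bp at 5489 bp lay just outside the window, and with a window of 10 kb it was marked in both genotypes and wider in KO cells by 346 bp. PAX4, a gene of pancreatic islets, had 357 bp, and the eye gene PAX6 and the cortical gene EMX1 had 258 bp each. None of these 8 peaks overlapped a KO peak, where 30.4% of all parental promoter peaks did. The genes were picked for having no KO promoter peak, which leaves little room for overlap. None of the 8 peaks spanned a start, where 13.5% of all symbols marked in parental cells had a spanned one.

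The 4 promoters marked in both genotypes were wider in KO cells, where 50.8% of the 429 symbols marked in both were. Their median log2 width ratio was 0.65, against 0.01 over all symbols. NKX2-4, a hypothalamic gene, had 4929 bp in 1 KO peak and 1441 bp in 2 parental peaks (log2 ratio 1.77), and its KO peak covered the upstream parental peak of 721 bp in full. MEIS3 had 2999 bp in KO cells and 1879 bp in parental cells (0.67), with the parental peak wholly inside the KO one. POU3F2, the neuronal factor BRN2, had 3702 bp in KO cells and 3312 bp in parental cells (0.16), over nearly the same stretch. Summed over all members, promoter H3K27me3 covered 23059 bp in KO cells and 13608 bp in parental cells, while the sums over all symbols differed by little, with KO cells at 103% of parental cells. The larger KO sum of the members depends on the window. Within 20 kb of a start, member peaks covered 64852 bp in KO cells and 70510 bp in parental cells. Of 10 KO promoter peaks 5 overlapped a parental peak, and of 13 parental promoter peaks 4 (30.8%) overlapped a KO peak, where 33% and 30.4% of all promoter peaks did.

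Both marks at 1 promoter were rare, and the genes differed between genotypes. PAX2 and ZFHX3 carried both in KO cells, and DLX5, LHX4 and MEIS3 carried both in parental cells, which is 2.82% and 4.23% of members against 0.84% and 1.15% of all symbols. In both genotypes these genes made up 25% of the members with promoter H3K27me3, where all symbols gave 16.9% in KO cells and 22.5% in parental cells. No member had both marks in both genotypes, which rests on 2 genes in KO cells and 3 in parental cells. Over all symbols, 52.3% of KO promoters with H3K27me3 had no parental peak, and 53.6% of parental ones had no KO peak. The marks come from separate libraries, which cannot show whether they lie on the same copy of a promoter.

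**Figure D5:**
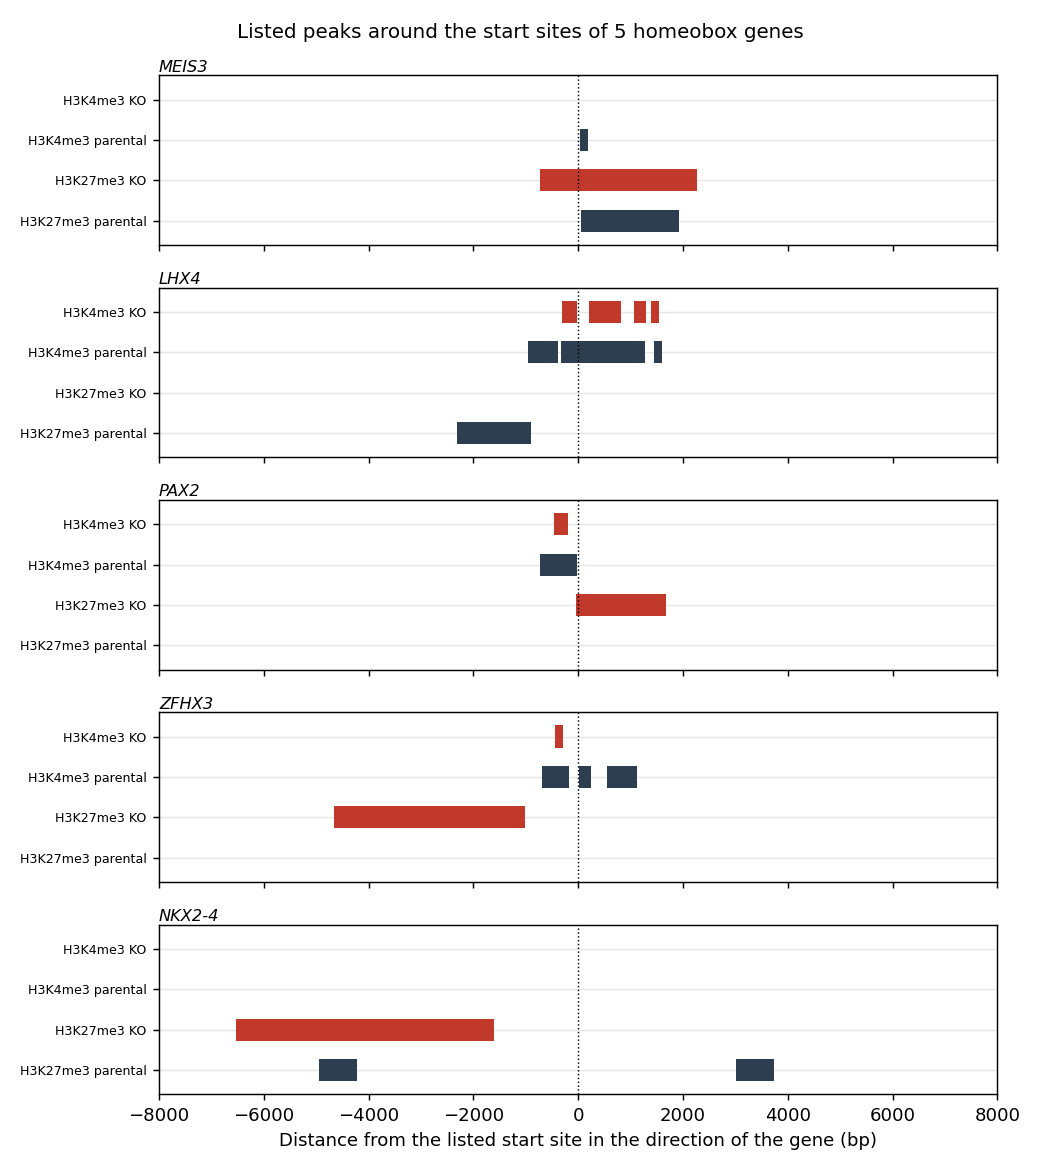
Listed peaks within 8 kb of the start (dotted line) of MEIS3, LHX4, PAX2, ZFHX3 (outer start) and NKX2-4, by distance in bp in the direction of the gene. Rows are H3K4me3 and H3K27me3 peaks, with JMJD3 KO (red) above parental (dark) for each mark. The KO H3K27me3 peak of MEIS3 spans the start where the parental peak stops short of it, and PAX2 and ZFHX3 have KO H3K27me3 peaks beside H3K4me3. H3K4me3 was narrower in KO cells there, as at all 20 members marked in both genotypes.

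At MEIS3, a HOX cofactor gene, the parental H3K4me3 peak of 160 bp overlapped the end of the parental H3K27me3 peak by 144 bp. In KO cells the H3K27me3 peak ran from 47920517 to 47923515 on chromosome 19, across the start and over the place of the H3K4me3 peak, which was not listed. At LHX4 the marks were arranged the other way: in parental cells H3K27me3, from 180197110 to 180198533 on chromosome 1, met the upstream H3K4me3 peak with an overlap of 63 bp. In KO cells neither that H3K27me3 peak nor the upstream H3K4me3 peak of 573 bp was listed, while 4 H3K4me3 peaks of 156 to 608 bp lay on both sides of the start. At PAX2 the KO H3K27me3 peak began 138 bp beyond the end of the KO H3K4me3 peak, and the parental H3K4me3 peak, which ended at 102505451, reached into the same stretch. At ZFHX3 the marks in KO cells were 570 bp apart, and at DLX5 in parental cells they were 1110 bp apart.

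Beyond the promoter window H3K27me3 was listed near many more of these genes. Within 20 kb of a start, 27 members (38%) had an H3K27me3 peak in KO cells and 35 (49.3%) in parental cells, where 13% and 12.9% of all symbols did. H3K4me3 was listed within 20 kb of 27 members (38%) in KO cells and 39 (54.9%) in parental cells, against 75.6% and 85% of all symbols. Members and all symbols alike needed a line in a list, and 32 of the 103 RefSeq genes had none. A gene without H3K4me3 thus entered only through H3K27me3. This raises the H3K27me3 share of a family with little H3K4me3, so its distance from the share over all symbols is not a measure of enrichment. Most members had 1 mark alone: in either genotype 31 had H3K27me3 only, 29 had H3K4me3 only and 11 had both within 20 kb. The 30 members with no promoter peak of either mark had a more distant one by the rule for members. Of these, 21 had H3K27me3 alone, 6 had H3K4me3 alone, and BARX2, LHX1 and PAX3 had both.

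Among those 21 were 8 of the 11 NKX genes and the leukaemia gene MEIS1. MEIS1, the cofactor of HOXA9 in myeloid leukaemia, had no H3K4me3 peak within 20 kb in either genotype, no H3K27me3 peak in KO cells and 1 of 639 bp in parental cells, upstream of its start at -13794 bp. NKX6-1, a gene of pancreatic beta cells, had 1 peak of 815 bp in KO cells and none in parental cells. PRRX1, a gene of limb mesenchyme, had none in KO cells and 3 in parental cells, the widest of 3195 bp. PAX9, a gene of pharyngeal pouches and teeth, had 2 in KO cells, the nearer at -5323 bp from the start, and none in parental cells. The B cell gene PAX5 had no H3K27me3, and a single H3K4me3 peak of 199 bp in parental cells, 6347 bp from its start. H3K27me3 within 20 kb was listed in KO cells only at 7 of the 27 members marked there (25.9%, against 40.5% over all symbols), and in parental cells only at 15 of 35 (42.9%, against 40.1%).

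By class of gene family, TALE genes were most often marked by H3K4me3 among the larger classes, at 4 of 9 in KO cells and 7 of 9 in parental cells. LIM genes followed with 2 of 7 in KO cells and 4 of 7 in parental cells, then POU genes with 3 of 11 and 4 of 11. The ANTP class outside HOX, which holds the DLX and NKX genes, had 3 of 25 in KO cells and 7 of 25 in parental cells, and the PAX class had 1 of 8 in both. Over all symbols 62.9% were marked in KO cells and 71.3% in parental cells. TALE genes thus lay below that share in KO cells and near it in parental cells. H3K27me3 was listed at 2 of 25 ANTP promoters in KO cells and 4 in parental cells, at 2 of 8 PAX promoters in both genotypes, with no gene in common, and at 2 of 11 POU promoters in KO cells and 3 in parental cells. Over all symbols the shares were 4.97% and 5.11%. Of all symbols with H3K27me3 in KO cells 52.3% had no parental peak, and of those with it in parental cells 53.6% had no KO peak.

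Homeobox genes that the family rule leaves out include regulators of blood cells such as ZEB2 and HHEX. They were also narrower in KO cells wherever H3K4me3 was listed in both genotypes, as were 95.9% of all symbols marked in both. Of 65 such genes 41 had a line. Of the 41, 18 (43.9%) had promoter H3K4me3 in KO cells and 21 (51.2%) in parental cells, against 62.9% and 71.3% of all symbols. The median log2 width ratio was -1.16 at the 18 marked in both, against -1.01 over all symbols. TGIF1, a TALE repressor, had 2974 bp in KO cells and 6310 bp in parental cells, and ZEB2, a regulator of blood cell differentiation, had 2619 bp in KO cells and 5986 bp in parental cells, in peaks that are also listed for ZEB2-AS1. HHEX, a factor of early blood cells and liver, had 1493 bp in KO cells and 2644 bp in parental cells. EVX2 and ONECUT1 were marked in parental cells only, with 241 and 231 bp. H3K27me3 was listed in KO cells only at DBX2 (1130 bp) and ONECUT2 (685 bp), and in parental cells only at BSX (2520 bp) and DBX1 (816 bp). Each pair makes 4.88% of the 41 genes, against 2.6% of all symbols in KO cells only and 2.74% in parental cells only.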

How the data were processed

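ChIP-seq libraries of HL-60 cells were used as 4 deposited peak lists, 1 per genotype and mark. Alignment to hg19 and peak calling are named only through tools in the submitters' processing notes: MACS2 2.1.1, BWA 0.7.10 and SAMtools. Peak thresholds and the use of the inputs are not given in the sources used here. Per the file headers, each line joins a peak to a RefSeq transcript with a distance and a score. The score deposited by the authors depends on the distance alone (largest error 5e-13 against an exponential of it) and was not used as peak strength. Starts were read as counted from 0 and are printed counted from 1.

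Promoter peaks, widths and states were computed per symbol with Python 3.11.15 and pandas 2.3.3, overlaps with bedtools 2.31.1 (at least 1 bp). On simulated lists all 18086 planted states were recovered, which checks the code alone. Each simulated gene had a single start, no peak shared with another gene and no peak at the edge of the window. Members, gene lists and the rule for named genes were chosen with earlier results of these data known. Named by rule were members whose state differed, those with promoter H3K27me3 or both marks, the 8 widest parental H3K4me3 promoters, the 3 highest and 3 lowest ratios, 9 blood-related genes (PBX4 has no line) and, of the other homeobox list, up to 6 genes per mark whose state differed. The other named genes (such as NKX6-1, PRRX1, PAX9, TGIF1, ZEB2 and HHEX) and the printed promoters were chosen after their values were seen. In RefSeq GRCh38.p14 all 71 members were found by symbol and 48 (67.6%) had a promoter, so a check of base composition over the members is void. A promoter was printed where the start's place relative to at least 5 neighbouring starts fitted both builds within 100 bp. Alternatives were windows of 1, 10 and 20 kb (the last added after seeing the data), peaks that span the TSS, the nearest gene, lists of equal length, and peaks of at least 300 bp (H3K4me3) or 1000 bp (H3K27me3). Values of a few single genes are not reported here, though the counts and sums include them.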

Additional observations from a re-analysis of the deposited data

How the results depend on the processing

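No paired analysis was possible because each group holds 1 library. The median H3K4me3 ratio of -1.39 was -1.29 with windows of 1 and 10 kb and -1.56 for peaks of at least 300 bp, and turned to 0.49 for peaks that span the TSS, where 2 genes remained. The 10 members with H3K4me3 in parental cells only numbered 5 within 1 kb and 5 with lists of equal length. In KO cells only it was found at 1 gene for spanning peaks (POU4F1) and 1 within 20 kb (POU3F3). Members marked in both numbered 2 for spanning peaks and 12 for wide peaks. The share of parental promoters without a KO peak stayed above that of all symbols in these settings, for example 20.8% against 16.4% within 1 kb and 20% against 10.7% with lists of equal length.

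H3K27me3 in KO cells only was found at 1 member within 1 kb, 2 for spanning peaks and 7 within 20 kb. In parental cells only it was found at 0, 0 and 15, and at 1 for wide peaks. It was found in both at 1 within 1 kb, 11 within 10 kb, 0 for spanning peaks and 20 within 20 kb, and 29 had none within 20 kb. The share of parental promoters without a KO peak was 0% within 1 kb, with 1 member marked, against 75.7% of all symbols. For wide peaks it was 25% against 57.2%. It stayed above all symbols with windows of 10 kb (52.2% against 47.3%) and 20 kb, the nearest gene and equal lists. Of KO promoters, 50% against 69% had no parental peak within 1 kb, and 100% against 78.1% for spanning peaks. The median ratio was 0.24 within 10 kb and 0.16 for wide peaks, and could not be computed for spanning peaks. Both marks were found in KO cells at 1 member within 1 kb and 0 for spanning or wide peaks, and in parental cells at 1 within 1 kb, with equal lists or for wide peaks, and 0 for spanning peaks. With 50% of the peak covered, 15 parental H3K4me3 and 2 KO H3K27me3 peaks overlapped. With reciprocal overlap 11 KO and 11 parental H3K4me3 peaks did, and 2 KO and 2 parental H3K27me3 peaks.

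Among the genes reported singly, these changed sign (KO minus parental width). For H3K4me3, DLX4 (10 bp) and SIX5 (29 bp) did with lists of equal length, SIX4 (307 bp) within 1 kb and for spanning peaks, and POU4F1 (735 bp) for spanning peaks. For H3K27me3, DLX5 (346 bp) and POU3F2 (-603 bp) did within 10 kb. The causes were not tested. PAX2 was the only member whose differing H3K27me3 state held in all of these settings, and IRX6 the only one for H3K4me3. Depth is unknown, and its part in these differences was not tested.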
